A study of Paspalum vaginatum with 72 samples.

Results

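The 4 genes described here, emFS21.173, emFS21.139, emFS1.1 and emOS55.280, are the genes of the term aromatic compound biosynthetic process that stood out in non-stressed roots of seashore paspalum (Paspalum vaginatum), a halophytic turfgrass. They were chosen by their higher FPKM (a read count scaled to gene length and library size) in non-stressed roots of the salt-tolerant accession than of the salt-sensitive accession, out of 27743 gene models. Those root values are therefore given as a description without a test, and the tests below use the salt-treated roots and the leaves, which had no part in the choice. The term holds 15 genes of the table, so 11 others carry it.

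O-methyltransferases of this kind move the methyl group of S-adenosylmethionine to a hydroxyl group of a phenol, a flavonoid or a related aromatic compound. Methylation makes such compounds less polar, and in grasses it yields lignin precursors as well as defence compounds and allelochemicals. All 4 genes take their names from matches to proteins of other species. emFS1.1 is named 5-pentadecatrienyl resorcinol O-methyltransferase, which in sorghum methylates the alkylresorcinol precursor of sorgoleone, an allelochemical that root hairs exude. emOS55.280 is named naringenin 7-O-methyltransferase, which in rice makes the phytoalexin sakuranetin from the flavanone naringenin. emFS21.173 and emFS21.139 are both named Probable O-methyltransferase 2, after a sorghum gene, and the substrate of that protein is not given by the name.

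The series compared roots and leaves of 2 accessions, the tolerant USA17-18 and the sensitive USA17-26, in 24 conditions of 3 libraries, 72 in all. Each accession and tissue has plants in 400 mM NaCl for 8 h, 12 h, 24 h, 48 h and 5 days and a control without NaCl, which the labels set at time 0. The design text of the series names water for the control, whereas the methods name plants without added NaCl. The methods describe 2-week-old plants grown from stolons in Hoagland solution, NaCl raised in daily steps of 100 mM, collection on the fifth day, and 6 plants as a biological replicate, and they name which accession is tolerant. Each accession is a single genotype, so a difference between the accessions is a difference between 2 genotypes, and in whole roots or leaves fewer cells that express a gene and less RNA per cell cannot be told apart.

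A chromosome is shared by emFS21.173 and emFS21.139. In the coordinates of the deposited table, for which no source used here names a genome build, emFS21.173 lies on chromosome 5 from 46434880 to 46436146 on the plus strand. emFS21.139 lies on the same chromosome from 47038185 to 47039948, also on the plus strand and 602039 bp further on. emFS1.1 lies on chromosome 9 from 43010446 to 43021762 on the minus strand, and emOS55.280 lies on chromosome 1 from 51376559 to 51386052 on the minus strand. The gene models span 1267 bp for emFS21.173, 1764 bp for emFS21.139, 11317 bp for emFS1.1 and 9494 bp for emOS55.280. The table gives the dimerisation domain of plant O-methyltransferases for the other 3 genes but a domain of unknown function for emFS1.1, although its names are those of an O-methyltransferase.

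Between 17555 and 20676 genes reached 1 FPKM in a library. No read totals come with the values, and relative depth, estimated from the steps between low values of 224 genes, ran from 0.761 to 1.27 times the median library. Photosynthesis markers (15 chlorophyll a-b binding and Rubisco small subunit genes) summed to 1.37 to 1179 FPKM in roots and to 307 to 43228 FPKM in leaves, and the 2 Casparian strip genes to 1.13 to 33.1 FPKM in roots and 0.08 to 1.76 FPKM in leaves. The root list as a whole, 27 genes that also hold iron-chelate transporters and nicotianamine synthases, did not separate the tissues (273 to 982 FPKM in roots and 166 to 1851 FPKM in leaves). Photosynthesis markers summed to 307 to 1330 FPKM in tolerant and 375 to 662 FPKM in sensitive leaves at 12 h. Tolerant leaves at 8 h had 1041 to 2186 FPKM of them. Control leaves had 31845 to 43228 FPKM (tolerant) and 10861 to 27831 FPKM (sensitive). The part of this in the leaf differences between times was not tested.

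Some libraries went against their labels. Genes that were expressed in the sensitive accession and near 0 in the tolerant one, chosen in the other tissue, stood at 5% or more of their sensitive level in 12 tolerant libraries. These were root 8 h replicates 1 and 2 (49.5% and 12.3%), root 12 h replicate 1 (64.2%), root 48 h replicate 2 (7.20%), root 5 days replicate 2 (14.6%), leaf control replicates 1 and 3 (7.18% and 7.56%), leaf 8 h replicates 1 and 2 (49.2% and 6.29%) and all 3 leaf 12 h libraries (54.9% to 57.9%). In the sensitive libraries, genes of the tolerant accession stayed at 0.479% or less of their tolerant level. Called results that rest on the 12 libraries are given with and without them, apart from those of tolerant leaves at 12 h and of means over leaves, for which no tolerant 12 h leaf library is then left. A single tolerant library is then left in roots at 8 h, in control leaves and in leaves at 8 h. Differences that use these groups are then given as sizes alone. The level of 2 clock genes also differed between the times. CCA1 (emOS184.45), a morning gene, was at 0.60 to 26.2 FPKM in control and 8 h libraries, at 1.11 to 20.4 FPKM at 12 h and at 130 to 1070 FPKM at 24 h, 48 h and 5 days, and GIGANTEA (emFS24.430), an evening gene, was at 249 to 502 FPKM, 53.0 to 189 FPKM and 63.2 to 219 FPKM in these. At 8 h the clock genes also differed from the control, with CCA1 at 8.82 to 26.2 FPKM in tolerant roots, against 0.94 to 1.44 FPKM in their control, and at 0.60 to 1.08 FPKM in tolerant leaves, against 2.00 to 2.78 FPKM. The 8 h roots had 249 to 285 FPKM of GIGANTEA in the tolerant accession, against 428 to 502 FPKM in its control, and 267 to 318 FPKM in the sensitive accession, against 422 to 429 FPKM in its control. A salt response measured against the control and the hour of collection cannot be told apart here. Comparing the accessions within each time does not remove clock differences. For CCA1 the accessions did not overlap in roots of the control, 8 h, 24 h and 5 days. Nor did they in leaves at 24 h, 48 h and 5 days. Elsewhere CCA1 overlapped. At 24 h CCA1 spanned 284 to 295 FPKM (tolerant) against 130 to 157 FPKM (sensitive) in roots. Leaves at 24 h held 694 to 1064 FPKM (tolerant) against 304 to 410 FPKM (sensitive). The part of this in the differences between the accessions was not tested.

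In the non-stressed roots on which the genes were selected, all 4 were higher in every tolerant library than in any sensitive one. emFS21.173 stood at 2.44, 7.32 and 1.40 FPKM in tolerant roots, against 0.11, 0.16 and 0.05 FPKM in sensitive roots. emFS21.139 stood at 15.1, 15.6 and 6.73 FPKM in tolerant roots, against 0.37, 0.26 and 0.37 FPKM in sensitive roots. The third gene, emFS1.1, had 9.47, 9.24 and 15.8 FPKM in tolerant roots, against 0.14, 0.08 and 0.14 FPKM in sensitive roots. These 3 genes were thus near the lower end of detection in sensitive roots. emOS55.280 had 4.14, 7.01 and 5.16 FPKM in tolerant roots, against 0.70, 0.99 and 0.63 FPKM in sensitive roots. On the log2(FPKM + 1) scale the differences, tolerant minus sensitive, were 1.89 for emFS21.173, 3.26 for emFS21.139, 3.44 for emFS1.1 and 1.84 for emOS55.280.

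The salt-treated roots ask whether the difference lasted under salt. Below, a difference on the log2(FPKM + 1) scale is called where it reached 1.5 in size with an adjusted p no higher than 0.05, the limits given in the methods, in limma with Benjamini-Hochberg adjustment over all tested genes. This scale understates the fold of genes at low FPKM. Statements that libraries did or did not overlap are descriptions, as the share of all genes without overlap was not counted. Of the 20 differences between the accessions (4 genes at 5 salt times), 5 were called, all higher in the tolerant accession, and 17 had that sign. The share of all tested root genes called in either direction was 2.47% at 8 h, 0.955% at 12 h, 6.08% at 24 h, 1.82% at 48 h and 2.42% at 5 days.

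emFS21.173 gave 3 of the 5 calls in roots. At 8 h it stood at 8.33, 7.66 and 10.2 FPKM in tolerant roots, against 0, 0.13 and 0.07 FPKM in sensitive roots. At 12 h both accessions were near 0, with 0.06, 0.28 and 0.47 FPKM in tolerant roots, against 0, 0.05 and 0 FPKM in sensitive roots. From 24 h the gene was detected in both accessions. The tolerant roots then had 7.29, 95.8 and 24.3 FPKM, against 2.60, 4.27 and 0.95 FPKM in sensitive roots. At 48 h the values were 139, 5.59 and 10.7 FPKM in tolerant roots, against 13.5, 1.35 and 1.26 FPKM in sensitive roots. At 5 days they were 72.03, 68.1 and 255 FPKM in tolerant roots, against 9.11, 8.67 and 9.48 FPKM in sensitive roots. The libraries of the accessions overlapped at 48 h alone.

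The difference for emFS21.173, tolerant minus sensitive, was 3.18 ± 0.826 at 8 h (SE, adjusted p = 0.0133), 3.03 at 24 h (adjusted p = 0.0103) and 3.43 at 5 days (adjusted p = 0.00774), with the same SE. It was 2.38 at 48 h (adjusted p = 0.0996) and 0.31 at 12 h (adjusted p = 0.955), neither called. The mean over the 5 salt times was 2.47 ± 0.37 (adjusted p = 8.53e-06), where 1.47% of root genes were called. The 8 h call was lost without tolerant replicate 3 (3.08, adjusted p = 0.0573) and with a pseudocount of 5 (1.43, adjusted p = 0.161). With the libraries that hold sensitive-type mRNA left out the 8 h difference was 3.40, from a single tolerant library, and was not called. The 24 h call was lost without tolerant replicate 2 (2.12, adjusted p = 0.0769) or sensitive replicate 3 (2.65, adjusted p = 0.0582), and the 48 h difference was called without tolerant replicate 2 (3.25, adjusted p = 0.0238) or sensitive replicate 1 (3.26, adjusted p = 0.0247). Without the sensitive-type libraries the 5-day difference was 3.76 (adjusted p = 0.012) and the mean 2.78, with a single tolerant library at 8 h.

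emFS21.139, of the same name, had a called difference between the accessions at 5 days alone. It was nearly silent in both accessions over the middle times. Tolerant roots had 0.85, 0.52 and 1.39 FPKM at 8 h, against 0.08, 0.12 and 0 FPKM in sensitive roots. These libraries did not overlap, and the 8 h difference was called with a pseudocount of 0.1 (2.60, adjusted p = 0.025) but not with 1 (0.82, adjusted p = 0.288). At 12 h no root library exceeded 0.13 FPKM, and at 24 h tolerant roots had 0.12, 3.22 and 0.27 FPKM, against 0.49, 0.28 and 0.17 FPKM in sensitive roots. At 48 h the order was the other way, with 0.61, 0.46 and 0.65 FPKM in tolerant roots, against 2.04, 4.83 and 1.36 FPKM in sensitive roots. That difference of -1.14 ± 0.494 was not called (adjusted p = 0.221), although the libraries did not overlap. At 5 days the tolerant roots had 7.35, 6.50 and 45.7 FPKM, against 1.45, 0.64 and 3.14 FPKM in sensitive roots. This difference was 2.49 ± 0.494 (adjusted p = 0.0013), 2.95 without the sensitive-type library (adjusted p = 0.00129), and 2.49 with an adjusted p of 0.16 when the 2 compared groups were fitted alone. Over the 5 salt times the mean difference was 0.52 ± 0.221 (adjusted p = 0.0777) and was not called.

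emFS1.1 was low in all salt-treated roots, and no root difference between the accessions was called for it. Sensitive roots never exceeded 0.13 FPKM under salt, and 8 of their 15 salt-treated libraries were listed at 0. Tolerant roots had 0.65, 0.55 and 1.88 FPKM at 8 h, 0, 0.72 and 0.13 FPKM at 12 h, 0.24, 0.36 and 0.10 FPKM at 24 h, 0.13, 0.67 and 0.23 FPKM at 48 h and 1.56, 1.08 and 3.65 FPKM at 5 days. The 5-day libraries did not overlap with the sensitive ones, at 0, 0 and 0.10 FPKM. The 5-day difference was 1.4975 ± 0.244 (adjusted p = 0.00014), just under the size of 1.5. It was called without tolerant replicate 1 (1.59), tolerant replicate 2 (1.74, the library with sensitive-type mRNA) or sensitive replicate 3 (1.54). The mean over the salt times was 0.66 ± 0.109 (adjusted p = 3.28e-05), below the size threshold, and 0.82 without the sensitive-type libraries. At these levels the size of the difference depends on the pseudocount, and with 0.1 in place of 1 the mean was 2.20 (adjusted p = 1.97e-07) and the differences at 8 h (3.05), 48 h (1.96) and 5 days (3.95) were called.

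emOS55.280 was expressed in every root library and had a called difference between salt-treated roots at 24 h alone. At 8 h it stood at 9.67, 8.84 and 6.06 FPKM in tolerant roots, against 4.11, 7.63 and 6.29 FPKM in sensitive roots, and at 12 h at 12.7, 18.4 and 26.7 FPKM in tolerant roots, against 15.8, 10.8 and 15.1 FPKM in sensitive roots. At 24 h tolerant roots had 12.96, 7.43 and 12.5 FPKM, against 1.17, 4.53 and 1.28 FPKM in sensitive roots. This difference, without overlap, was 1.95 ± 0.43 (adjusted p = 0.00202), and with a pseudocount of 5 it was 1.13 (adjusted p = 0.00891), under the size threshold. At 48 h the values were 5.23, 3.72 and 7.85 FPKM in tolerant roots, against 2.44, 1.88 and 4.25 FPKM in sensitive roots, and at 5 days 6.28, 8.91 and 17.6 FPKM in tolerant roots, against 17.6, 29.2 and 5.55 FPKM in sensitive roots. The 5-day difference of -0.49 ± 0.43 (adjusted p = 0.572) had the sign opposite to that in the non-stressed roots. The mean over the salt times was 0.61 ± 0.192 (adjusted p = 0.0181), below the size threshold.

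**Figure D1:**
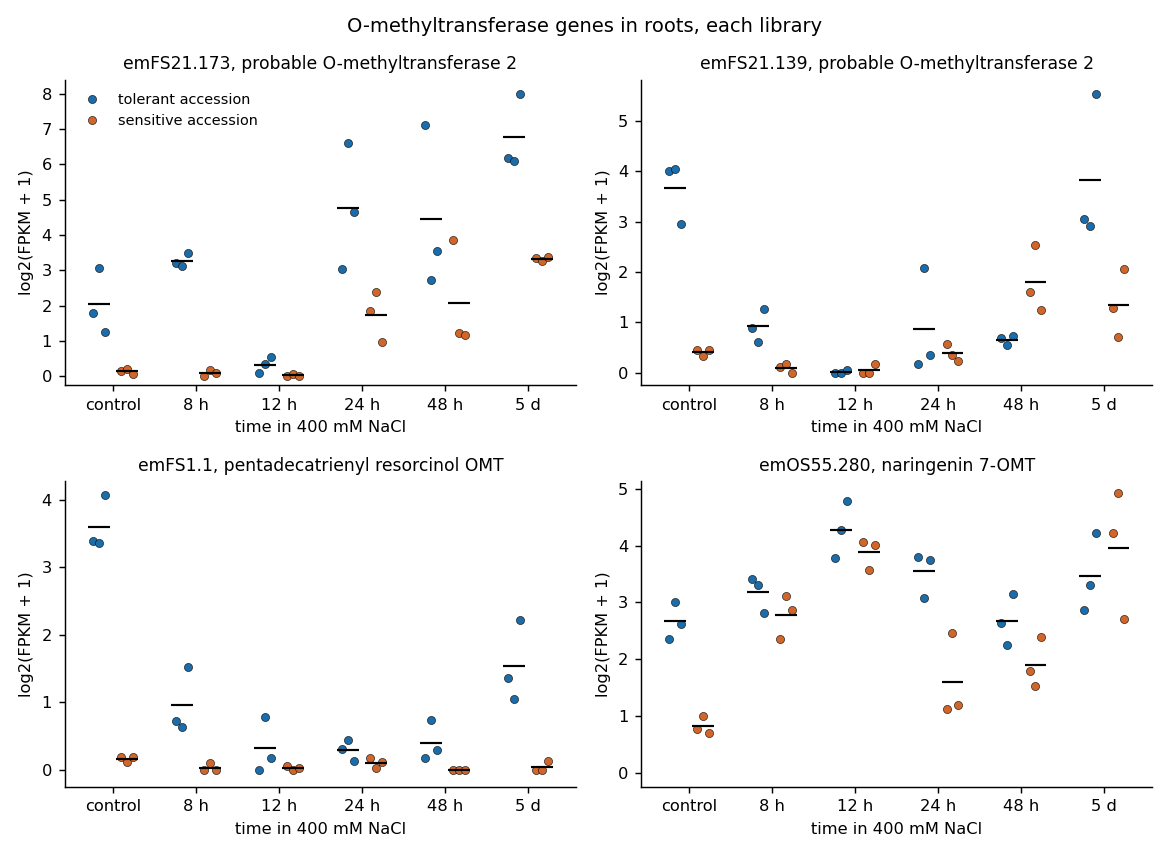
Level of the 4 O-methyltransferase genes in each of the 36 root libraries as log2(FPKM + 1), by time in 400 mM NaCl, with the tolerant accession left of the sensitive one at each time. Points are libraries and lines are means of 3. emFS21.173 climbs to 68.1 to 255 FPKM in tolerant roots at 5 days, against 8.67 to 9.48 FPKM in sensitive roots, while emFS1.1 stays below 4 FPKM in every salt-treated root library.

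The course over time in roots set the genes apart from each other. Measured against the non-stressed roots, and given with no test because the genes were chosen on those libraries, emFS1.1 in tolerant roots changed by -2.64 at 8 h, -3.28 at 12 h, -3.31 at 24 h, -3.20 at 48 h and -2.06 at 5 days. emFS21.139 in tolerant roots changed by -2.76, -3.66, -2.81 and -3.02 at the 4 earlier times and by 0.17 at 5 days. emFS21.173 moved the other way from 24 h on, by 2.73, 2.43 and 4.73 in tolerant roots and by 1.59, 1.94 and 3.19 in sensitive roots at 24 h, 48 h and 5 days. emOS55.280 was highest against the control at 12 h and 5 days in sensitive roots (3.06 and 3.13) and at 12 h in tolerant roots (1.62).

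Among the salt-treated libraries alone, 3 of 8 changes between 8 h and 5 days were called, all higher at 5 days. In tolerant roots, where 7.73% of genes were called, emFS21.173 was 3.49 ± 0.826 higher at 5 days (adjusted p = 0.00217) and emFS21.139 was 2.92 ± 0.494 higher (adjusted p = 7.83e-05). With the sensitive-type libraries left out, which leaves a single tolerant root library at 8 h, the changes were 3.61 and 3.05. In sensitive roots, where 6.36% were called, emFS21.173 was 3.24 ± 0.826 higher (adjusted p = 0.00478), and 1.47 with a pseudocount of 5 (adjusted p = 0.0914), where the call was lost. In sensitive roots the change of emFS21.139 was called with a pseudocount of 0.1 (3.29, adjusted p = 0.0022), with an equal sum per library (1.52, adjusted p = 0.0323) and without 5-day replicate 2 (1.58, adjusted p = 0.0421) and that of emOS55.280 without 5-day replicate 3 (1.79, adjusted p = 0.00182). For none of the 4 genes was a difference between the accessions in this change called (adjusted p from 0.242 to 0.942, with 0.608% of genes called). The moderated F test over the 5 salt times was called for all 4 genes in tolerant roots (34.1% of genes) and for the others but emFS1.1 in sensitive roots (48.5%). For emOS55.280 in tolerant roots it was at an adjusted p of 0.0472. It was lost (0.0555 to 0.162) in 10 of 15 fits that left out 1 tolerant library. It was also lost without the sensitive-type libraries, with a single tolerant library left at 8 h. In sensitive roots the F tests of emFS21.173 and emFS21.139 were lost with a pseudocount of 5 (adjusted p = 0.23 and 0.331).

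Between 24 h and 5 days 2 root changes were called. GIGANTEA overlapped between these times in roots, but CCA1 was higher at 5 days, at 335 to 489 FPKM, against 284 to 295 FPKM at 24 h in tolerant roots, and at 220 to 282 FPKM, against 130 to 157 FPKM at 24 h in sensitive roots. Its part in the changes was not tested. emFS21.139 was 2.98 ± 0.494 higher at 5 days in tolerant roots (adjusted p = 0.00132, with 1.11% of genes called), and an adjusted p of 0.136 resulted from the 2 groups alone. Without the sensitive-type library it was 3.44 (adjusted p = 0.00265). emOS55.280 was 2.36 ± 0.43 higher at 5 days in sensitive roots (adjusted p = 0.000385, with 8.72% of genes called), and with a pseudocount of 5 it was 1.49, under the size threshold. Other settings called further changes, in sensitive roots emFS21.173 from the 2 groups alone (1.6, adjusted p = 0.0262) and emFS21.139 with a pseudocount of 0.1 (1.98, adjusted p = 0.0474), and in tolerant roots emFS1.1 with a pseudocount of 0.1 (2.63, adjusted p = 0.0127). The 5-day tolerant library of replicate 3 held the highest value of all 4 genes among the 3, with 255, 45.7, 3.65 and 17.6 FPKM. It also held the most photosynthesis-marker and Casparian strip mRNA of the 3 (168 FPKM against 16.7 and 15.9, and 33.1 FPKM against 7.04 and 7.31). Photosynthesis-marker mRNA in 5-day sensitive roots came to 1179, 225 and 40.9 FPKM. It reached at most 116 FPKM there at 8 h and 14.4 FPKM at 24 h. Those 5-day libraries had 9.11, 8.67 and 9.48 FPKM of emFS21.173 and 17.6, 29.2 and 5.55 FPKM of emOS55.280. In sensitive leaves at 5 days these genes averaged 87.9 and 93.5 FPKM. The part of the marker mRNA in the 5-day results, the rises in sensitive roots included, was not tested. Without tolerant replicate 3 the 5-day differences of emFS21.173 and emFS21.139 between the accessions were still called. They were 2.82 (adjusted p = 0.0478) and 1.63 (adjusted p = 0.0132).

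In leaves, 4 of 24 differences between the accessions were called, all higher in the tolerant accession, and 13 had that sign. The share of tested leaf genes called was 2.03% in control leaves, 5.41% at 8 h, 2.33% at 12 h, 2.29% at 24 h, 1.69% at 48 h and 1.8% at 5 days. emFS1.1 gave 3 of the calls and emFS21.173 the other.

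emFS1.1 was expressed in leaves of the tolerant accession and practically absent from those of the sensitive accession. In control leaves it stood at 7.61, 4.30 and 4.47 FPKM in the tolerant accession, against 0.13, 0.08 and 0 FPKM in the sensitive accession. At 8 h the tolerant leaves had 0, 0.31 and 0.16 FPKM and all 3 sensitive libraries were listed at 0. At 12 h the tolerant leaves had 0.04, 0 and 0 FPKM, against 0.02, 0.05 and 0.05 FPKM in sensitive leaves. Both accessions were thus at or near 0 at these times. At 24 h tolerant leaves had 0.96, 1.56 and 2.82 FPKM and sensitive leaves were again listed at 0. At 48 h tolerant leaves had 7.04, 13.3 and 13.6 FPKM, against 0.04, 0 and 0 FPKM in sensitive leaves. At 5 days they had 5.74, 12.3 and 4.73 FPKM, against 0.02, 0 and 0.02 FPKM in sensitive leaves. No sensitive library of either tissue exceeded 0.14 FPKM, and 18 of the 36 were listed at 0.

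The leaf difference of emFS1.1 was 2.56 ± 0.252 in control leaves (adjusted p = 4.48e-08), 3.55 at 48 h (adjusted p = 5.49e-11) and 2.98 at 5 days (adjusted p = 2.41e-09), each with the same SE. At 24 h it was 1.42 (adjusted p = 0.000357), under the size threshold and called without tolerant replicate 1 (1.64, adjusted p = 0.000196). At 8 h it was 0.20 (adjusted p = 0.682) and at 12 h -0.04 (adjusted p = 0.947). The mean over the 6 times was 1.78 ± 0.103 (adjusted p = 1.15e-13), where 1.22% of leaf genes were called. Each of the 4 calls was also made in every fit without 1 library. Without the sensitive-type libraries, with a single tolerant control library left, the control difference was 2.31. Because the gene is at low FPKM, a pseudocount of 5 brought the control, 5-day and mean differences under the size threshold (1.03, 1.28 and 0.74, adjusted p at most 3.67e-05).

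emFS21.173 averaged 166 FPKM over all tolerant and 43.2 FPKM over all sensitive leaf libraries, and its level there differed widely between the times in both accessions. Control leaves had 38.6, 41.2 and 49.7 FPKM in the tolerant accession, against 18.7, 14.8 and 12.2 FPKM in the sensitive accession. At 8 h the tolerant leaves had 0.60, 29.1 and 15.4 FPKM, against 20.4, 14.3 and 15.8 FPKM in sensitive leaves, and at 12 h 1.56, 0.18 and 0.64 FPKM, against 1.69, 2.22 and 4.74 FPKM in sensitive leaves. The 12 h mean was the lowest in both accessions, at 0.793 FPKM in tolerant and 2.88 FPKM in sensitive leaves. At 24 h tolerant leaves had 228, 369 and 241 FPKM, against 50.4, 54.0 and 43.5 FPKM in sensitive leaves. At 48 h they had 320, 547 and 213 FPKM, against 77.3, 56.6 and 128 FPKM in sensitive leaves. At 5 days they had 487, 328 and 85.0 FPKM, against 155, 48.8 and 60.4 FPKM in sensitive leaves. The accessions did not overlap in control leaves, at 24 h and at 48 h, where the tolerant ones were higher, nor at 12 h, where they were lower. The share of all leaf genes without overlap was not counted.

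Of these, the 24 h difference of 2.45 ± 0.685 was called (adjusted p = 0.021). It was lost without tolerant replicate 2 (2.23, adjusted p = 0.101), sensitive replicate 2 (2.52, adjusted p = 0.0605) or sensitive replicate 3 (2.37, adjusted p = 0.0569), and with a pseudocount of 0.1 (2.47, adjusted p = 0.0625). The 48 h difference of 2.01 (adjusted p = 0.126) was called in the fit without the sensitive-type libraries (2.01, adjusted p = 0.0272), and the 5-day difference of 1.62 (adjusted p = 0.235) without tolerant replicate 3 (2.36, adjusted p = 0.049). Of all libraries, that 5-day replicate had the lowest correlation with the mean of its other replicates (r = 0.85). It also had the fewest genes at 1 FPKM (17555). The mean over the 6 times was 0.92 ± 0.28 (adjusted p = 0.019), below the size threshold.

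For emFS21.139 no difference between the accessions was called in leaves at any time. The differences ran from -0.93 at 5 days to 0.67 in control leaves (SE 0.556, adjusted p from 0.456 to 0.875), and the mean was -0.29 ± 0.227 (adjusted p = 0.408). Control leaves had 14.3, 20.8 and 9.96 FPKM in the tolerant accession, against 7.40, 6.47 and 13.6 FPKM in the sensitive accession. The 8 h leaves had 44.9, 13.95 and 19.97 FPKM in the tolerant accession, against 42.4, 26.5 and 44.0 FPKM in the sensitive one, and the 12 h leaves 7.29, 2.74 and 3.21 FPKM, against 4.13, 5.92 and 13.1 FPKM. At 12 h the gene was thus lowest in both. At 24 h the values were 86.3, 43.9 and 26.4 FPKM in tolerant leaves, against 41.2, 38.8 and 35.0 FPKM in sensitive leaves. At 48 h they were 22.5, 24.8 and 37.0 FPKM in tolerant leaves, against 82.3, 26.3 and 26.2 FPKM in sensitive leaves. At 5 days they were 14.4, 16.0 and 61.5 FPKM in tolerant leaves, against 72.8, 22.8 and 63.4 FPKM in sensitive leaves. The accessions overlapped at every time.

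emOS55.280 reached the highest leaf values in control leaves of both accessions and scattered more between replicates than the other 3. Control leaves had 531, 20.1 and 21.04 FPKM in the tolerant accession, against 508, 400 and 41.3 FPKM in the sensitive accession. At 8 h the values were 1.84, 38.3 and 43.0 FPKM in tolerant leaves, against 56.1, 98.8 and 259 FPKM in sensitive leaves, and at 12 h 318, 4.02 and 1.31 FPKM, against 87.6, 41.9 and 128 FPKM in sensitive leaves. A single library of 3 therefore set the tolerant means in control leaves and at 12 h. At 24 h tolerant leaves had 4.60, 27.1 and 27.2 FPKM, against 5.15, 0.33 and 1.92 FPKM in sensitive leaves. At 48 h they had 82.6, 93.4 and 157 FPKM, against 308, 34.9 and 2.1 FPKM in sensitive leaves. At 5 days they had 357, 206 and 3.06 FPKM, against 101, 44.4 and 135 FPKM in sensitive leaves. The median ratio of the highest to the lowest replicate was 14 over the 12 leaf conditions of this gene and at most 243, against 1.98 and at most 5.27 over its root conditions. With an SE of 1.73 none of its leaf differences between the accessions was called (adjusted p from 0.339 to 0.953), although the 8 h libraries did not overlap, and the mean was -0.49 ± 0.708 (adjusted p = 0.673).

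**Figure D2:**
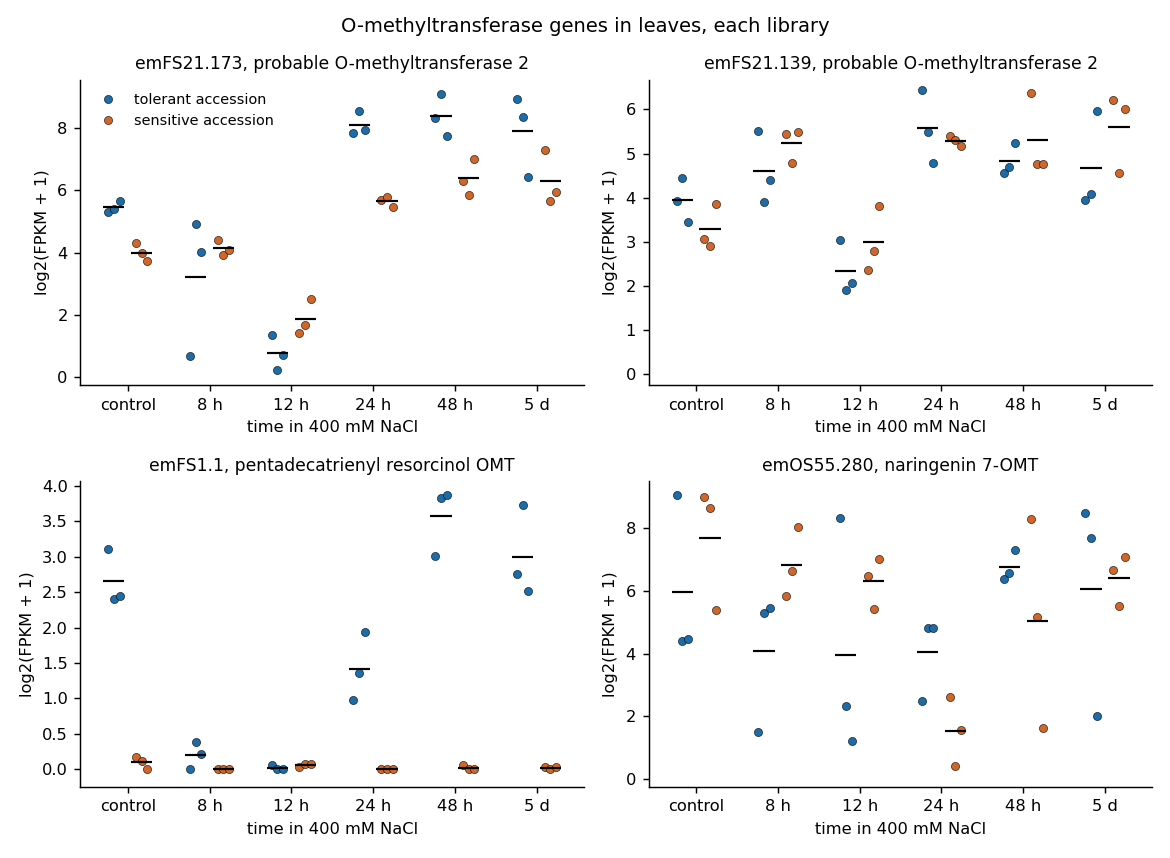
Level of the 4 genes in each of the 36 leaf libraries as log2(FPKM + 1), by time in 400 mM NaCl, with the tolerant accession left of the sensitive one. Points are libraries and lines are means of 3. emFS1.1 reaches 4.30 to 13.6 FPKM in tolerant leaves of the control, 48 h and 5 days and at most 0.13 FPKM in sensitive leaves, and emOS55.280 spreads widely between replicates.

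**Figure D3:**
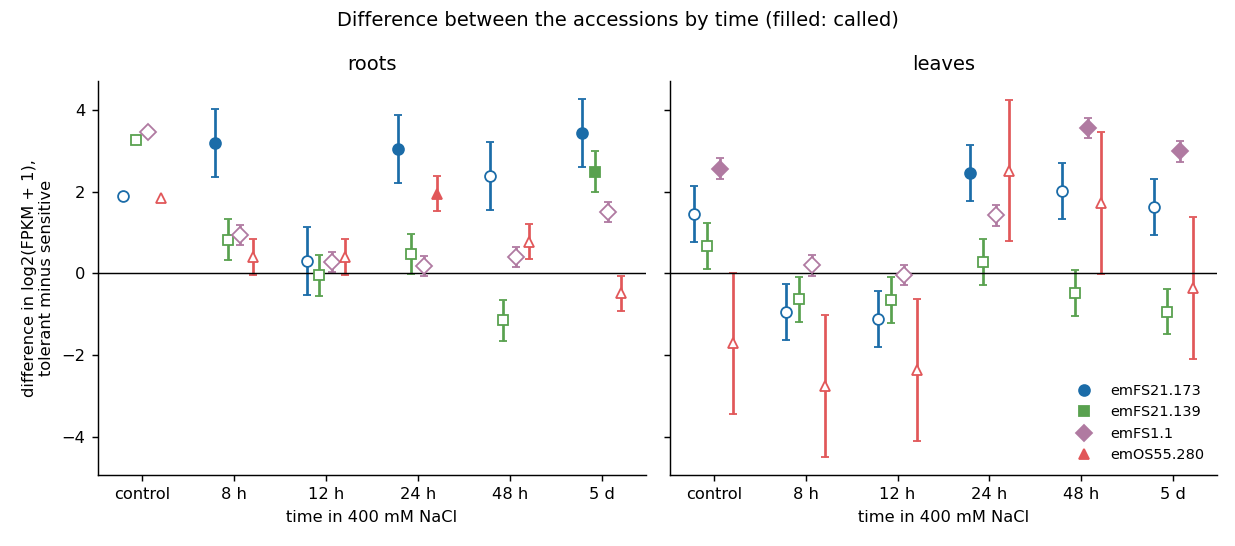
Difference between the accessions, tolerant minus sensitive, in log2(FPKM + 1) at each time, in roots and leaves, with bars of 1 SE. Filled symbols were called, open symbols were not, and the control roots have no bar because the genes were chosen on them. The highest single difference in salt-treated roots is that of emFS21.173 at 5 days (3.43) and the highest in leaves that of emFS1.1 at 48 h (3.55), while the order of the genes changes from time to time.

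Salt-treated leaves were compared with control leaves of the same accession, with the clock and photosynthesis-marker differences stated above. Of 40 such differences, 18 were called, 11 higher and 7 lower under salt. The share of all leaf genes called was 11.9%, 13.9%, 13.7%, 10.8% and 9.33% in tolerant leaves and 1.65%, 8.94%, 22.7%, 8.55% and 7.11% in sensitive leaves at 8 h, 12 h, 24 h, 48 h and 5 days. The median difference over all genes was -0.57 in sensitive leaves at 24 h and between -0.29 and 0.19 in the other 9 comparisons.

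emFS21.173 gave 9 of the 18 calls. In tolerant leaves it was lower at 8 h (-2.25 ± 0.685, adjusted p = 0.011) and 12 h (-4.69, adjusted p = 4.52e-06). It was higher there at 24 h (2.64, adjusted p = 0.00314), 48 h (2.93, adjusted p = 0.00174) and 5 days (2.45, adjusted p = 0.00839). In sensitive leaves it was lower at 12 h (-2.12, adjusted p = 0.0214) and higher at 24 h (1.65, adjusted p = 0.0403), 48 h (2.38, adjusted p = 0.0106) and 5 days (2.29, adjusted p = 0.0156). Both accessions thus had called differences of the same direction at 24 h, 48 h and 5 days. At 12 h the sign was also the same, but all 3 tolerant libraries there held 54.9% to 57.9% sensitive-type mRNA, the part of which in the value was not tested. No interaction of accession and salt was called for this gene (adjusted p from 0.123 to 0.973), except at 8 h without tolerant 8 h replicate 2 (-3.24, adjusted p = 0.0343) and at 12 h from the compared groups alone (-2.57, adjusted p = 0.0221). The tolerant 8 h call rested on replicate 1, which holds sensitive-type mRNA. It was lost without that library (-0.98, adjusted p = 0.183) and from the compared groups alone (adjusted p = 0.138). Without all sensitive-type libraries the 8 h difference was -1.37, with a single library on each side, and was not called. The tolerant 5-day call was lost without 5-day replicate 1 (1.94, adjusted p = 0.065) and from the compared groups alone (adjusted p = 0.0547). With the sensitive-type libraries left out, against a single control library, the later tolerant values were 2.70 at 24 h, 2.99 at 48 h and 2.51 at 5 days. In sensitive leaves the 24 h call was lost without any of its 6 libraries (adjusted p from 0.0593 to 0.0937), the 12 h call without control replicate 1 or 2 or 12 h replicate 1 or 2 (adjusted p from 0.0525 to 0.0682), the 48 h call without 48 h replicate 3 (2.07, adjusted p = 0.056), and the 5-day call without control replicate 3 (2.15, adjusted p = 0.0515) or 5-day replicate 1 (1.79, adjusted p = 0.108). With a pseudocount of 5 the sensitive 12 h (-1.37, adjusted p = 0.051) and 24 h (1.43) calls were lost, and with 0.1 the 24 h call (1.70, adjusted p = 0.0823).

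emFS21.139 gave 6 calls, 4 of them in sensitive leaves. There it was higher at 8 h (1.96 ± 0.556, adjusted p = 0.0422), 24 h (2.02, adjusted p = 0.00344), 48 h (2.03, adjusted p = 0.00765) and 5 days (2.32, adjusted p = 0.0028). In tolerant leaves it was lower at 12 h (-1.60, adjusted p = 0.0222) and higher at 24 h (1.63, adjusted p = 0.0219). No interaction was called (adjusted p from 0.306 to 0.81). The calls at 24 h and 5 days in sensitive leaves were made without any 1 library. The sensitive 8 h call was lost without any of its libraries but control replicate 3 (adjusted p from 0.0758 to 0.179), in the fit without the sensitive-type libraries (adjusted p = 0.0639), with median-ratio scaling (adjusted p = 0.0935) and with a pseudocount of 5 (adjusted p = 0.0528), and the 48 h call without 48 h replicate 1 (1.49, adjusted p = 0.0641). The tolerant 12 h call was lost without control replicate 2 (-1.35), 12 h replicate 2 (-1.38) or 12 h replicate 3 (-1.47), with adjusted p from 0.0747 to 0.0947, and it rests on sensitive-type libraries entirely. The tolerant 24 h call was lost without control replicate 3 (1.38, adjusted p = 0.0957) or 24 h replicate 1 (1.19, adjusted p = 0.139). Without the sensitive-type libraries the 24 h difference was not called either, at 1.12 against a single control library. With a pseudocount of 5 the tolerant calls at 12 h (-1.08) and 24 h (1.41) were lost.

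emFS1.1 had called decreases in salt-treated tolerant leaves at 8 h and 12 h. The difference from control leaves was -2.45 ± 0.252 at 8 h (adjusted p = 4.78e-08) and -2.64 at 12 h (adjusted p = 7.82e-09). It was -1.23 at 24 h (adjusted p = 0.000299), 0.92 at 48 h (adjusted p = 0.00681) and 0.35 at 5 days (adjusted p = 0.331), none called. The 24 h libraries were still below those of the control without overlap. That difference was called with a pseudocount of 0.1 (-1.64, adjusted p = 0.00587) and at a size of 1. In sensitive leaves, where the gene was near 0 throughout, the differences lay between -0.10 and -0.04 (adjusted p from 0.756 to 0.932). The interaction of accession and salt was called at 8 h (-2.36 ± 0.356, adjusted p = 0.000371) and 12 h (-2.60, adjusted p = 0.000206), where 4.08% and 1.72% of genes were called. At 24 h, 48 h and 5 days, where 0.315%, 0.0843% and 0.0621% were called, it was not. Without the sensitive-type libraries a single tolerant library was left in control leaves and in 8 h leaves. The 8 h salt difference was then -2.19 and the 8 h interaction -2.1, which was not called. The 12 h values rest on sensitive-type libraries entirely. With a pseudocount of 5 none of these 4 was called, at -1.01 and -1.05 for the salt differences and -0.99 and -1.04 for the interactions at 8 h and 12 h. Between 24 h and 5 days, where both clock genes overlapped in tolerant leaves, emFS1.1 was 1.58 ± 0.252 higher at 5 days (adjusted p = 0.000291, 3.53% of genes called). That call was lost on size without 24 h replicate 1 (1.36) or 5-day replicate 2 (1.22), with a pseudocount of 5 (0.85) and with median-ratio scaling (1.49), and on the adjusted p (0.132) from the 2 groups alone.

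emOS55.280 gave 1 call, -6.15 ± 1.73 in sensitive leaves at 24 h (adjusted p = 0.00403), which was made without any 1 library. Those leaves had 5.15, 0.33 and 1.92 FPKM, against 508, 400 and 41.3 FPKM in the sensitive control. Between 24 h and 5 days it was 4.90 ± 1.73 higher at 5 days in sensitive leaves (adjusted p = 0.0301, 10.7% of genes called), and the call was lost without any of 5 of the 6 libraries (adjusted p from 0.0566 to 0.108) and with a pseudocount of 5 (3.65, adjusted p = 0.0545). Neither clock gene overlapped between these times in sensitive leaves, with CCA1 at 439 to 567 FPKM at 5 days, against 304 to 410 FPKM at 24 h. In the tolerant leaves its salt differences lay between -2.02 and 0.78 (adjusted p from 0.386 to 0.976).

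Root and leaf were compared at each salt time within an accession, root minus leaf. Of 40 such differences 19 were called, all lower in roots. The share of genes called was 18.1%, 19.1%, 20.7%, 19.4% and 19.5% in the tolerant accession and 19.9%, 15.9%, 18.9%, 17.8% and 19.5% in the sensitive accession at 8 h, 12 h, 24 h, 48 h and 5 days. For the mean over the salt times, 17% of genes were called in the tolerant and 16.4% in the sensitive accession.

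emFS21.139 was called lower in roots in 9 of 10 comparisons, with means of -3.15 ± 0.24 in the tolerant accession (adjusted p = 5.83e-17) and -4.15 ± 0.24 in the sensitive accession (adjusted p = 1.07e-21). The exception was the tolerant accession at 5 days, with -0.83 ± 0.537 (adjusted p = 0.202) and a called -1.68 (adjusted p = 0.00916) without root replicate 3. With a pseudocount of 5 the 12 h differences (-0.88 in the tolerant and -1.27 in the sensitive accession) were not called. emFS21.173 was called lower in roots in 6 of 10, with means of -1.75 ± 0.347 in the tolerant accession (adjusted p = 1.42e-05) and -3.41 ± 0.347 in the sensitive accession (adjusted p = 1.37e-12). Its difference between the accessions in this mean was 1.66 ± 0.491 (adjusted p = 0.0297, 0.518% of genes called), with roots closer to leaves in the tolerant accession. It was lost without tolerant root 24 h replicate 2 (1.48, adjusted p = 0.0514), tolerant root 48 h replicate 1 (1.39) or tolerant leaf 8 h replicate 1 (1.41), with a pseudocount of 5 (0.67, adjusted p = 0.356) and from the compared groups alone (adjusted p = 0.0529).

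emOS55.280 was called lower in roots in 3 of 10 comparisons, of which that of the sensitive accession at 48 h (-3.12, adjusted p = 0.041) was lost without any of 5 of its 6 libraries (adjusted p from 0.0555 to 0.41), with a pseudocount of 5 (adjusted p = 0.0516) and from the compared groups alone (adjusted p = 0.127). Its means were -1.55 ± 0.577 in the tolerant accession (adjusted p = 0.0147), a call lost without any of 9 of the 30 libraries (-1.50 to -1.11) and with a pseudocount of 5 (-1.48), and -2.40 ± 0.577 in the sensitive accession (adjusted p = 0.000258). emFS1.1 was lower in tolerant roots at 48 h (-3.17 ± 0.246, adjusted p = 6.97e-16), and its mean of -0.94 ± 0.11 in the tolerant accession (adjusted p = 9.66e-11) was below the size threshold. In the sensitive accession, where it was near 0 in both tissues, the mean was 0.02 ± 0.11 (adjusted p = 0.862). At 48 h the tolerant calls were also made when the sensitive-type libraries were left out. They were -4.13 for emFS21.139, -3.05 for emFS21.173, -3.33 for emFS1.1 and -3.86 for emOS55.280 (adjusted p at most 0.0102). At 8 h the value of emFS21.139 was then -3.13, with a single library in each tissue. The 12 h values and the means could not be computed.

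Ordered by mean FPKM over the 24 conditions, each gene had its own ranking, and hardly any neighbours in a ranking were separate. emFS21.173 ran from 360 ± 171 FPKM (SD, n = 3) in tolerant leaves at 48 h to 0.0167 ± 0.0289 FPKM in sensitive roots at 12 h, and 0 of 23 neighbouring pairs had libraries that did not overlap. emFS21.139 ran from 53.0 ± 26.6 FPKM in sensitive leaves at 5 days to 0.0100 ± 0.0173 FPKM in tolerant roots at 12 h, with 2 such pairs. emOS55.280 ran from 316 ± 244 FPKM in sensitive control leaves to 0.773 ± 0.191 FPKM in sensitive control roots, with 1 pair. For emFS1.1 the top condition was the tolerant control root at 11.5 ± 3.71 FPKM, and 3 sensitive conditions were listed at 0 in every library. Its single separate pair lay between tolerant control leaves at 5.46 ± 1.86 FPKM and tolerant roots at 5 days at 2.1 ± 1.37 FPKM.

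The 4 genes did not share a single pattern. Over the 24 condition means of log2(FPKM + 1), which share libraries, tissue and accession, Pearson's r was 0.753 between emFS21.173 and emFS21.139 and between 0.219 and 0.517 for the other 5 pairs. The means include the non-stressed roots on which the 4 genes were chosen, so r here and for the genes below is a description. Most like emFS21.173 were emFS7.16 (senescence-associated protein OSA15, r = 0.932), emFS18.1146 (glutamate carboxypeptidase LAMP1, r = 0.925) and the unnamed emOS99.197 (r = 0.913). Most like emFS21.139 were emOS140.197 (plastid-lipid-associated protein 8, r = 0.917), emOS120.222 (a homologue of regulator of nonsense transcripts 1, r = 0.910) and emFS1.230 (phosphoethanolamine N-methyltransferase 1, which methylates a phosphobase on the way to choline, r = 0.905). For emFS1.1 the closest genes were emOS33.16 (SUMO ligase SIZ2, r = 0.876), emOS114.56 (leucine-tRNA ligase, r = 0.857) and emFS9.248 (methyltransferase PMT7, r = 0.855). For emOS55.280 they were emOS144.762 (mitochondrial elongation factor G, r = 0.943), emOS91.1860 (transcription factor MYB61, r = 0.937) and emFS4.2009 (chromatin protein CLASSY 1, r = 0.932).

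The wide replicate spread of emOS55.280 in leaves was shared with other genes. In a comparison chosen after the values were seen, the deviations of the 36 leaf libraries from their condition means were correlated with those of 18866 genes. The gene highest by r was emOS106.164 (receptor kinase MALE DISCOVERER 2, r = 0.960), followed by emOS43.106 (auxin-responsive IAA30, r = 0.952), emOS91.167 (a microtubule-associated protein, r = 0.948) and emOS86.8 (dirigent protein 1, which guides the coupling of lignan precursors, r = 0.943). MYB61, which in Arabidopsis and rice regulates secondary wall formation among other traits, was at r = 0.937 and stood among both the condition means and the deviations. It had 41.1, 1.41 and 1.85 FPKM in tolerant control leaves, against 40.5, 25.5 and 2.55 FPKM in sensitive control leaves, so it was high in the same libraries as emOS55.280. Peroxidases 3 and 2 (emOS164.162, r = 0.938, and emOS114.375, r = 0.935), kinesin KIN-7H (emOS173.159, r = 0.935) and 2 fasciclin-like arabinogalactan proteins (emFS1.365, r = 0.934, and emOS99.578, r = 0.929) were also among the 15 highest. The other 3 O-methyltransferase genes had r between -0.082 and 0.467 with it.

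**Figure D4:**
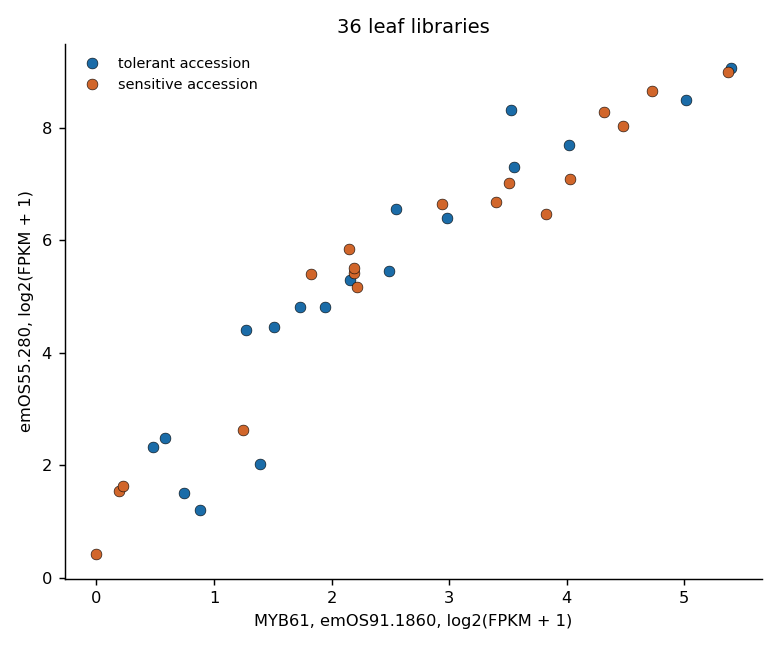
emOS55.280 (vertical) against MYB61, emOS91.1860 (horizontal), both as log2(FPKM + 1), in the 36 leaf libraries, with the tolerant and the sensitive accession in different colours. MYB61 was picked from the correlation itself, and both genes run together, from 0.33 to 531 FPKM for emOS55.280 and from 0 to 41.1 FPKM for MYB61.

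In salt-treated roots 0 of 16 other tested aromatic O-methyltransferase genes were called in the mean difference between the accessions, where 1.47% of genes were. Their median was 0.08, against 0.08 over all 22194 genes, and they ranged from -0.76 to 0.99. The 7 other tested genes with the same term had a median of -0.17 and 0 calls. In the phenylpropanoid list, which leads from phenylalanine through the hydroxycinnamoyl units to the alcohol precursors of lignin, 0 of 51 were called (median 0.13). The flavonoid list holds enzymes that make the naringenin that emOS55.280 is named for and enzymes that use naringenin or later flavonoids. Of its genes, 0 of 23 were called (median 0.07). None of 6 genes for alkylresorcinol synthesis, upstream of the reaction for which emFS1.1 is named, was called (median -0.01). At 5 days the flavanone 3-dioxygenase genes emOS100.155 (1.55, adjusted p = 0.0417) and emOS100.156 (1.86, adjusted p = 0.0313), named after their values were seen, were higher in tolerant roots, and 0 of the 16 other O-methyltransferases was called. The 5-day median of these 16 was -0.35, against 0.004 over all genes. For the 7 other genes of the term it was -1.08, with 0 calls.

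The methyl donor list, 13 genes that make and recycle S-adenosylmethionine, held 3 calls in roots. emOS55.1896, an adenosine kinase that clears the adenosine left by the methyl cycle, was 1.71 ± 0.2 higher in tolerant roots (adjusted p = 1.39e-07), with medians of 3.94 and 0.29 FPKM in tolerant and sensitive salt-treated roots. emOS59.123, a methionine synthase, was lower by -2.31 ± 0.144 (adjusted p = 5.51e-13), with medians of 38.4 and 215 FPKM. emOS120.317, an S-adenosylmethionine synthase, was lower by -1.89 ± 0.113 (adjusted p = 2.26e-13), with medians of 0.04 and 2.94 FPKM. The median of the list was 0.24. The table holds other copies of all 3 enzymes, and how reads of copies were divided is not given. The same 3 genes were called with the same signs in the leaf mean, at 2.25, -3.40 and -1.64.

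In leaves 0 of 18 other aromatic O-methyltransferase genes were called in the mean difference between the accessions (median -0.19, against -0.03 over all genes). At 5 days 1 was called, emFS1.2, the neighbour of emFS1.1 on the chromosome. Between tissues the other O-methyltransferases were called in both directions. Of 19 tested, 3 were higher and 2 lower in roots in the tolerant accession, and 2 were higher and 2 lower in the sensitive accession, with medians of -0.02 and 0.12 against 0.16 and 0.10 over all genes. Named after their values were seen, the lignin genes emFS4.1682 (caffeoyl-CoA O-methyltransferase, 2.41) and emOS184.44 (caffeic acid O-methyltransferase, 1.94) and the Probable O-methyltransferase 2 gene emOS146.98 (1.66) were higher in tolerant roots than leaves, and emFS21.165 (acetylserotonin O-methyltransferase, -6.24) and emFS1.687 (ZRP4, -2.16) were lower. The sensitive accession had emFS4.1682 (2.02) and emFS21.144 (Probable O-methyltransferase 2, 1.75) higher and emFS21.165 (-6.06) and emFS1.687 (-2.39) lower.

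The position of the genes was a property the choice did not use. emFS1.1 lies at the edge of a stretch of chromosome 9 where several genes were expressed in the tolerant accession and near 0 in the sensitive one. Its nearest neighbour on the side of higher coordinates is emFS1.2, an O-methyltransferase named ZRP4 after a maize root gene, on the same strand with 13 bp between the gene models. In leaves emFS1.2 averaged 4.16 FPKM in the tolerant accession (0 to 17.7) and 0.00444 FPKM in the sensitive accession (0 to 0.04). Its mean leaf difference was 1.40 (adjusted p = 0.000219), below the size threshold, and its 5-day leaf difference was 2.29 ± 0.643 (adjusted p = 0.0357). Reads of 2 O-methyltransferase models that nearly touch may have been divided between them, so their separate values are uncertain. On the other side the nearest gene, emFS1.601, is also named ZRP4 and lies 77744 bp away. It averaged 1.48 and 1.64 FPKM in tolerant and sensitive roots and did not differ (-0.15, adjusted p = 0.487).

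Of the 5 genes on the side of emFS1.2, 2 were called in roots and 2 in leaves, all higher in the tolerant accession. Of the 5 genes on the other side, of which 2 were tested in roots and 5 in leaves, 0 were called. When the window was widened to 20 genes after the values had been seen, 7 of 14 tested in roots and 6 of 14 tested in leaves were called higher and 0 lower, against 1.47% of root and 1.22% of leaf genes called in either direction. Among these, named after their values were seen, emFS1.8 averaged 47.5 FPKM in tolerant roots, against 2.21 FPKM in sensitive roots (3.83, adjusted p = 1e-20). The transcription factor gene emFS1.4 (VOZ1) averaged 4.44 FPKM in tolerant roots, against 0.14 FPKM in sensitive roots (2.1, adjusted p = 7.02e-12). The hemoglobin gene emFS1.16, 69924 bp from emFS1.1, averaged 75.1 FPKM in tolerant roots, against 1.61 FPKM in sensitive roots (4.16, adjusted p = 1.01e-14). Of the 5 genes beyond emFS1.18 in this window 0 were called, and emFS1.27 averaged 22.5 FPKM in roots of both accessions.

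**Figure D5:**
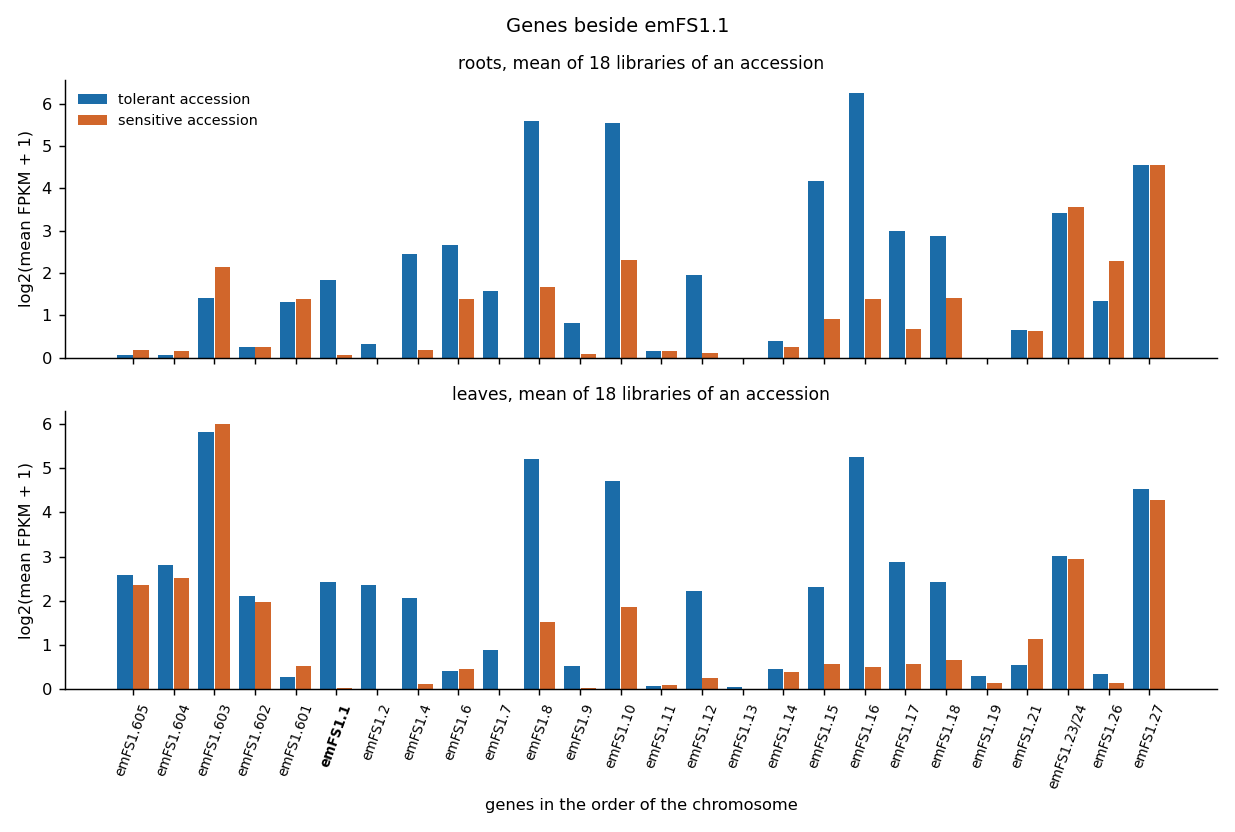
Mean level as log2(mean FPKM + 1) of emFS1.1, the 5 genes before and the 20 genes after it, in the order of the chromosome, in roots and in leaves, over the 18 libraries of the tolerant (left bar) and of the sensitive accession (right bar). The bars separate from emFS1.1 (2.58 FPKM in tolerant and 0.0456 FPKM in sensitive roots) to emFS1.18 for most genes expressed there and are alike in emFS1.27. The root means include the non-stressed roots on which emFS1.1 was chosen. Over the 15 salt-treated root libraries of an accession emFS1.1 averaged 0.797 FPKM (tolerant) and 0.0307 FPKM (sensitive).

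Around the other 3 genes no neighbour was called, though some differed under the size threshold. Beside emFS21.139, emFS21.135 and emFS21.145 were higher in tolerant leaves (0.99, adjusted p = 2.51e-05, and 0.95, adjusted p = 0.0031). There emFS21.134, emFS21.133 and emFS21.146 were lower (-0.93, -0.69 and -0.41, adjusted p at most 0.0467). Beside emFS21.173, emFS21.178 and emFS21.177 were at 0 in every sensitive library and averaged 0.224 and 0.343 FPKM in tolerant leaves. Of the 10 genes around emFS21.139, 8 were tested in roots and 9 in leaves, and 0 were called in the mean difference in either. The nearest ones, emFS21.142 and emFS21.137, are also named Probable O-methyltransferase 2, lie 20027 and 63692 bp away on the same strand, and averaged 4.06 and 0.0167 FPKM in tolerant roots, against 4.86 and 0.0283 FPKM in sensitive roots. No source used here says how such copies were counted, so the values of emFS21.139 may hold reads of its copies. Around emFS21.173, 3 of 10 genes were tested in roots and 0 were called, and its nearest neighbours emFS21.174 and emFS21.169 stayed at or below 0.63 FPKM in every library. Around emOS55.280, 8 were tested in each tissue and 0 were called. Its neighbours emOS55.281, a peroxygenase, and emOS55.279 averaged 7.89 and 0.245 FPKM in tolerant roots, against 9.65 and 0.0756 FPKM in sensitive roots.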

How the data were processed

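RNA was isolated by the authors with a commercial kit and sequenced on an Illumina HiSeq instrument, and the submitters' processing notes name Trimmomatic 0.32 and HISAT2 2.1.0. The authors deposited FPKM rounded to 2 decimals, a unit the methods call RPKM. Build, strand and read counts were not found in any source used here, so the DESeq2 test of the authors was not repeated. log2(FPKM + 1) was fitted in limma 3.58.1 (R 4.3.3) with a trend on mean expression, over the 36 libraries of a tissue or all 72, for genes reaching 1 FPKM in at least 3 libraries, with two-sided tests and Benjamini-Hochberg adjustment over all tested genes. The fit was tested on simulated data. Python 3.11.15, pandas 2.3.3, numpy 2.4.6 and matplotlib 3.10.9 made the tables and figures. Sensitive-type mRNA was scored on 70 genes in roots and 42 in leaves. The members and lists were chosen with earlier results of these data known, the lists by words in the deposited gene names. Named genes are the 4 members, the 3 genes most like each, their nearest neighbours and list genes called in salt-treated roots, beside those marked as named later. Alternatives were other pseudocounts (0.1, 5), another filter (none, or 5 FPKM on average), median-ratio scaling, an equal sum per library, a replicate block, the compared groups alone, a size of 1 and leaving out each library. The 24 h to 5-day comparison and the fit without sensitive-type libraries were added after the data were seen. The methods describe 3 containers a treatment, but the labels tie no library to a container, so p-values measure the spread between these libraries.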

Additional observations from a re-analysis of the deposited data

Results flagged for a closer look

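The salt response of emFS1.1 in leaves differed between the accessions at 8 h and 12 h. The interaction, tolerant minus sensitive, was -2.36 at 8 h and -2.60 at 12 h on the log2(FPKM + 1) scale (adjusted p = 0.000371 and 0.000206 in limma). Tolerant leaves stood at 0 to 0.31 FPKM at these times, against 4.30 to 7.61 FPKM in their control, and sensitive leaves were at or near 0 throughout. Without the sensitive-type libraries a single tolerant library was left in control leaves and in 8 h leaves. The 8 h interaction was then -2.10 and was not called. With a pseudocount of 5 the interactions were -0.99 and -1.04, neither called. The tolerant 12 h libraries all hold sensitive-type mRNA, and the part of this in the result was not tested.

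The root-minus-leaf difference of emFS21.173 over the salt times differed between the accessions by 1.66, with means of -1.75 in the tolerant and -3.41 in the sensitive accession (adjusted p = 0.0297 in limma). The call was lost with a pseudocount of 5 (0.67, adjusted p = 0.356), from the compared groups alone (adjusted p = 0.0529) and without any of 3 tolerant libraries (1.39 to 1.48).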

How the results depend on the processing

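No called difference changed sign under any alternative. Of 76 single differences followed, 64 were called, and 46 of these were called with every library left out in turn. A pseudocount of 5 ended 23 calls and 0.1 ended 2, median-ratio scaling 2, the compared groups alone 7 and leaving out the sensitive-type libraries 5. Of the 20 root differences between the accessions, 5 were called, 9 with a pseudocount of 0.1 and 3 with 5, and 4 to 6 without 1 library. Of the 24 leaf differences 4 were called, 1 of the 18 that remained with a mean of at least 5 FPKM, which removes emFS1.1, and 3 to 5 without 1 library. Of the 40 leaf salt responses 18 were called, 11 with a pseudocount of 5 and 15 to 18 without 1 library. Of the 8 root F tests 7 were called, 5 with a pseudocount of 5, 4 of the 4 left with a mean of at least 5 FPKM, and 6 to 7 without 1 library. The 8 h to 5-day changes gave 3 to 4 and the tissue differences 18 to 21 calls without 1 library, against 3 and 19. Replicate numbers did not pair the samples: the correlation of same-numbered tolerant and sensitive libraries ran from -0.47 to 0.71 with a median of 0.02. With the replicate block the counts were 5, 4, 18, 3 and 19 as without it, and 6 in place of 7 F tests. Without the sensitive-type libraries the counts were 6 of 20, 5 of 20, 12 of 36, 3 of 8 and 19 of 36 (5, 4, 15, 3 and 18 of the same differences with them). The tolerant leaf differences at 12 h and the means over leaves could not be computed without them. A single tolerant library was then left in roots at 8 h, in control leaves and in leaves at 8 h. Values near 0, such as those of emFS1.1 in the sensitive accession, rest on few reads, whose number is not known.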
